A study of Mus musculus with 20 samples.

Results

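Between 6 and 24 h of B cell receptor stimulation, splenic B cells of 2 genotypes changed their RNA to different extents, and the values below describe where that late step differed. The late step of a gene is its log2 value at 24 h minus its log2 value at 6 h, taken within a genotype. The late step difference is the step in TAK1-deleted cells minus the step in wild type cells, so a positive value means that TAK1-deleted cells moved further up, or less far down. It rests on 8 of the 20 arrays of the series, the 2 at 6 h and the 2 at 24 h of each genotype. Those 8 are all the arrays at these 2 times, and the comparison was chosen with earlier results of these data known. TAK1-deleted cells carried the genotype that the labels write as mb-1/TAK1f/f, and wild type cells carried mb-1/TAK1+/+, so the mb-1 element, which directs deletion to the B lineage, is given for both. The labels give all mice as C57BL/6, 8 to 12 weeks old and of mixed sex, which the sex-linked genes below bear on, and all 8 cultures were stimulated through the B cell receptor with 10 µg/ml of an antibody to IgM (anti-IgM) in RPMI medium with 10% serum. B cells had been isolated from spleen by bead removal of cells that carry CD43, a surface protein of T cells, NK cells, myeloid cells and activated or B-1 B cells. The labels do not say whether the 2 arrays of a group came from separate mice or cultures, so a p-value here measures spread among the deposited samples, and that spread may be technical.

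TAK1, encoded by Map3k7, is a kinase that acts downstream of the B cell receptor and activates the IκB kinases, which free NF-κB, and the MAP kinases JNK and p38. In resting B cells a receptor signal of this kind first induces immediate early and NF-κB target genes within hours. Cells that receive enough signal then grow, pass from G1 into DNA synthesis about a day later, and reduce their quiescence genes. The interval from 6 to 24 h spans that entry into the cycle.

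Values are log2 RMA values, on which 1 unit is a factor of 2, and a call means a Benjamini-Hochberg adjusted p below 0.05 in limma across all 11968 genes tested. Replicates of the 4 groups correlated with r of 0.987 to 0.994 across genes, which are not independent replicates. Map3k7 gave 10.70 and 10.64 at 6 h and 10.66 and 10.55 at 24 h in TAK1-deleted cells, against 10.66 and 10.57 at 6 h and 10.64 and 10.35 at 24 h in wild type cells. Its late step difference was 0.05 ± 0.12 (SE, adjusted p = 0.861), and neither the 24 h nor the 6 h values differed between genotypes by the test. Where the probes of this set lie relative to the deleted part of the gene was not analysed here, and the genotype therefore remains unchecked by this gene. Pan B cell markers had mean log2 values of 11.78 to 12.19 over the 8 arrays, and 0 of 12 members were called in the late step difference (1 without wild type 24 h replicate 2). The 4 sex-linked genes separated the genotypes. Their mean was 7.14 and 7.12 at 6 h and 7.17 and 7.16 at 24 h in TAK1-deleted cells, against 9.36 and 9.33 at 6 h and 9.54 and 9.12 at 24 h in wild type cells. Xist was higher in TAK1-deleted cells at both times. The 3 Y-linked genes were lower, with 3 of the 4 genes below the median of all values (7.45) in each of the 10 TAK1-deleted arrays and 0 in each wild type array. The label of mixed sex for the TAK1-deleted samples thus goes against their Y-linked values, and genotype cannot be told apart from sex makeup in any comparison below. Of the 4 genes 0 were called in the late step difference. In bulk RNA, fewer cells of a type and less RNA per cell cannot be told apart.

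The late step differed between genotypes at 1267 of 11968 genes (10.6%). It was higher in TAK1-deleted cells at 920 (7.69% of the genes tested) and lower at 347 (2.9%), and the median over all genes was -0.01. Counts of called list members below are to be read against these 2 shares, unless another share is given. Leaving out 1 array gave 611 to 875 higher and 196 to 348 lower genes. The higher count was 611 without wild type 6 h replicate 2, and the lower count was 196 without wild type 24 h replicate 1, 200 without wild type 6 h replicate 1 and 208 without TAK1-deleted 6 h replicate 2. Of the called genes 372 differed by at least 1 log2 unit, 335 of them higher and 37 lower. Each genotype taken alone changed many more genes. In TAK1-deleted cells 2122 rose and 2145 fell (35.7% called, and 2369 rose and 1624 fell with arrays centred on their medians), and in wild type cells 1874 rose and 2676 fell (38% called). The 2 TAK1-deleted steps and the 2 wild type steps, taken between arrays of the same replicate number, did not overlap at any of the 1267 called genes, and at 50.2% of all genes tested. The difference computed from replicate 1 alone correlated with that from replicate 2 alone with r = 0.80 across genes. Of the calls 681 were made in each of the 8 fits that left out 1 array, 554 of them higher and 127 lower. Without the replicate number as a block 463 genes were called (3.87%), 388 higher (3.24%) and 75 lower (0.627%), all among the 1267.

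The 920 higher genes were of several kinds. At 277 (30.1%) wild type cells fell and TAK1-deleted cells had no call, at 273 (29.7%) TAK1-deleted cells rose and wild type cells had no call, and at 128 (13.9%) TAK1-deleted cells rose where wild type cells fell. Both genotypes fell at 119 and both rose at 116. Among the 347 lower genes the most frequent pattern was a rise in both genotypes (163 genes, 47%), with the smaller rise in TAK1-deleted cells. Wild type cells alone had a called rise at 82 and TAK1-deleted cells alone a called fall at 74. The plot of the TAK1-deleted step against the wild type step shows these classes as regions on either side of the diagonal.

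**Figure D1:**
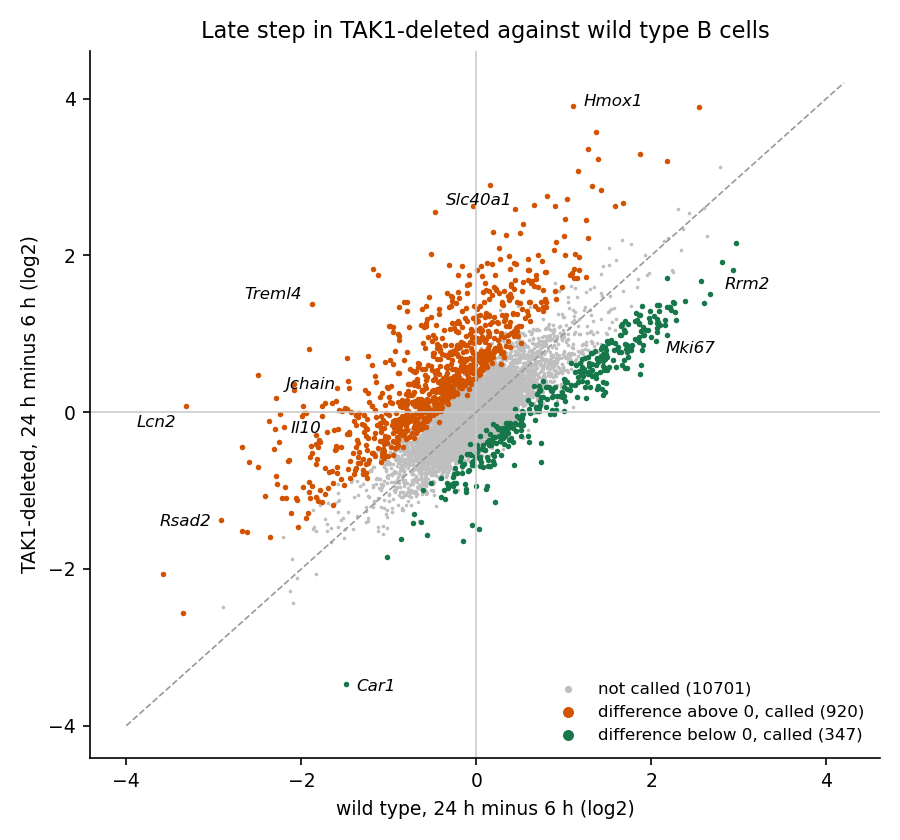
The TAK1-deleted late step (vertical axis, log2) is plotted against the wild type late step (horizontal axis, log2) for 11968 genes, each the mean of 2 arrays at 24 h minus the mean of 2 arrays at 6 h, with the dashed line marking equal steps. The 920 genes called above the line include Lcn2, which fell in wild type cells, and Slc40a1 and Hmox1, which rose in TAK1-deleted cells, and the 347 called below it include Rrm2 and Mki67, which rose in both genotypes.

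Genes of DNA replication made a smaller late step in TAK1-deleted cells. Of 39 tested genes of the DNA replication and G1/S list 26 were lower and 0 higher, against 2.9% lower over all genes. The list median was -0.64, with -0.77 in replicate 1 and -0.57 in replicate 2. The rise itself was made by both genotypes: 35 of 39 rose in TAK1-deleted cells and 39 of 39 in wild type cells, against 17.7% of all genes in TAK1-deleted cells and 15.7% in wild type cells. Rrm2, the small subunit of ribonucleotide reductase, which makes deoxynucleotides, gave 8.59 and 8.44 at 6 h and 10.46 and 10.19 at 24 h in TAK1-deleted cells, against 8.20 and 8.35 at 6 h and 11.40 and 11.01 at 24 h in wild type cells. All 24 h arrays were above all 6 h arrays, and both TAK1-deleted arrays at 24 h were below both wild type arrays at 24 h, while at 6 h they read above the wild type arrays without a call. Its late step was 1.81 in TAK1-deleted cells and 2.93 in wild type cells, a difference of -1.12 ± 0.19 (SE, adjusted p = 0.000496). Orc1, the largest subunit of the origin recognition complex, gave 7.01 and 6.93 at 6 h and 8.42 and 8.30 at 24 h in TAK1-deleted cells, against 6.46 and 6.52 at 6 h and 9.23 and 8.95 at 24 h in wild type cells, with a difference of -1.22 ± 0.17 (SE, adjusted p = 4.98e-05). The genotypes did not overlap at either time, with TAK1-deleted cells higher at 6 h and lower at 24 h, both called. Cdc6, which loads the replicative helicase at origins, differed by -0.99 ± 0.19 (SE, adjusted p = 0.00139), and Ccne1, cyclin E1, the cyclin that activates CDK2 at S phase entry, by -0.96 ± 0.18 (SE, adjusted p = 0.00123). Erythroid markers moved too: their mean was 8.36 and 8.22 at 6 h and 7.12 and 7.09 at 24 h in TAK1-deleted cells, against 7.15 and 7.13 at 6 h and 6.74 and 6.99 at 24 h in wild type cells. At 0 h both kinds of genes already read above wild type in TAK1-deleted cells. The replication list then averaged 9.56 and 9.3 in TAK1-deleted cells against 9.03 and 8.92 in wild type cells, and the erythroid markers 10.07 and 9.71 against 7.93 and 8.03. Rrm2 was higher by 1.04 and Cdc6 by 0.95 at 0 h, both called. The part of erythroid or other dividing cells in the late step of these lists was not tested. Without the replicate block 9 of the 39 were called lower, and with 1 array left out the count lay between 16 and 26. It was 16 without wild type 24 h replicate 1, 17 without wild type 6 h replicate 1 and 17 without TAK1-deleted 6 h replicate 2.

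Mitotic genes differed in the same direction, with the same erythroid values beside them. Of 28 tested members of the mitosis and G2/M list 25 were lower and 0 higher (list median -0.80), and 21 rose in TAK1-deleted cells against 28 in wild type cells. Over all genes 17.7% rose in TAK1-deleted cells and 15.7% in wild type cells. At 24 h all 28 were lower in TAK1-deleted cells, as were 14.1% of all genes. Mki67, the proliferation marker that coats mitotic chromosomes, gave 8.98 and 8.99 at 6 h and 9.96 and 9.82 at 24 h in TAK1-deleted cells, against 8.97 and 8.91 at 6 h and 11.13 and 10.85 at 24 h in wild type cells. At 6 h both TAK1-deleted arrays read slightly above both wild type arrays without a call, and at 24 h they were below both wild type arrays. Its late step was 0.91 in TAK1-deleted cells and 2.05 in wild type cells, and the difference was -1.14 ± 0.14 (SE, adjusted p = 1.45e-05). Cenpe, a kinetochore motor, gave 6.90 and 6.91 at 6 h and 7.08 and 7.23 at 24 h in TAK1-deleted cells, against 7.27 and 7.04 at 6 h and 8.91 and 8.35 at 24 h in wild type cells, with a difference of -1.22 ± 0.26 (SE, adjusted p = 0.00342). Its rise in wild type cells was called and its change of 0.25 in TAK1-deleted cells was not. Aspm, a spindle pole protein, showed the same pattern with a difference of -1.22 ± 0.25 (SE, adjusted p = 0.00219). Anln (anillin, a scaffold of the cleavage furrow) differed by -1.14 ± 0.24 (SE, adjusted p = 0.0025), Kif2c (a microtubule-depolymerising kinesin at centromeres) by -1.05 ± 0.20 (SE, adjusted p = 0.00134), and Cdk1, the mitotic kinase, by -0.98 ± 0.24 (SE, adjusted p = 0.00884, and 0.0556 without the replicate block). The Cdk1 call was made in 6 of the 8 fits with 1 array left out. Outside the list Kif4 (a chromokinesin), Cenph (a kinetochore protein) and Mastl (the Greatwall kinase) were among the 12 most negative genes, but of the 20 arrays only the wild type pair at 24 h reached the dim filter for Cenph and Mastl, joined by 1 TAK1-deleted array at 1 h for Kif4. They entered the test through the group in which they are high, and their values of -1.39 ± 0.24, -1.28 ± 0.20 and -1.20 ± 0.24 are a description. Of the 28 list members 27 passed the filter without any 1 group, and 24 of these were lower. At 0 h the list averaged 9.11 and 8.78 in TAK1-deleted cells and 8.42 and 8.32 in wild type cells. Without the replicate block 10 of the 28 were called, and without wild type 6 h replicate 1, the array with the lowest count, 14.

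Windows upstream of the starts of these genes are shown because they hold letters known as sites of cell cycle factors. They come from RefSeq on GRCm38.p6, each is written 5′ to 3′ on its gene's strand, and capitals mark the match. Cdc6 (chr11:98907998-98908034, plus strand) holds an E2F word, and the other 3 windows hold the CHR word, the CCAAT box or both, in Mki67 (chr7:135716457-135716582, minus strand), Kif2c (chr4:117178855-117178890, minus strand) and Cenpe (chr3:135212536-135212562, plus strand).
Cdc6: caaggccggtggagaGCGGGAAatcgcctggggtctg
Mki67: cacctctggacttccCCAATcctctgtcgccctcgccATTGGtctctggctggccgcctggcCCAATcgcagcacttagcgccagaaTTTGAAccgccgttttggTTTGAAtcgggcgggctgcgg
Kif2c: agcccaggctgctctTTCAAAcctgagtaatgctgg
Cenpe: atgacgctgcgccacCCAATccgctgc
The 250 bases before each start were searched on both strands for TTCCCGC or TTGGCGC (E2F), TTTGAA (CHR) and CCAAT. In the DNA replication and G1/S list 30.0% of 40 windows held an E2F word (33.3% of 27 windows of called members), against 9.53% of windows of all tested genes and 5.62% of all 32851 windows. In the mitosis and G2/M list 48.0% of 25 windows held the CHR word (50.0% of 22 windows of called members), against 10.6% for all tested genes and 16.0% of all. CCAAT was held by 84.0% (81.8% for called members), against 34.7% for all tested genes and 33.8% of all. The windows of Orc1, Rrm2, Ccne1 and Anln held none of their list's words. A match is a description of the letters and shows no binding.

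Regulators of G1 had few calls, to be read against 7.69% higher and 2.9% lower over all genes. Of 18 tested G1 cyclins, kinases and inhibitors 2 were higher and 1 lower, and 1 was higher without wild type 6 h replicate 1, TAK1-deleted 24 h replicate 1 or TAK1-deleted 6 h replicate 2. Ccnd2, cyclin D2, the D-type cyclin that B cells induce after receptor stimulation, gave 10.99 and 10.94 at 6 h and 12.44 and 12.35 at 24 h in TAK1-deleted cells, against 12.64 and 12.54 at 6 h and 13.00 and 12.93 at 24 h in wild type cells. TAK1-deleted arrays were below wild type arrays at both times, and by less at 24 h, so that its late step was 1.43 in TAK1-deleted cells and 0.37 in wild type cells, a difference of 1.06 ± 0.17 (SE, adjusted p = 0.000198). Cdkn2c, an inhibitor of CDK4 and CDK6, differed by -0.88 ± 0.18 (SE, adjusted p = 0.00242) and was not called without the replicate block (adjusted p = 0.0858). Cdkn2b, of the same inhibitor family, would not pass the dim filter without the TAK1-deleted arrays at 24 h, where it is high. Its value of 0.74 ± 0.19 is therefore a description. It was not called without the replicate block, and its call was lost with some single arrays left out. Of the 17 members that passed the filter without any 1 group, 1 was higher and 1 lower. Myc, a growth factor-induced transcription factor, fell in both genotypes and was lower in TAK1-deleted cells at both times, with a late step difference of -0.30 ± 0.11 (SE, adjusted p = 0.0976) that was not called.

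The largest positive values included markers of macrophages and granulocytes. Of 18 tested monocyte or macrophage markers 15 were higher and 0 lower in the late step difference, against 7.69% higher over all genes, with a list median of 1.49. Marco passed the dim filter through 1 group alone. Of the 17 that passed without any 1 group, 14 were higher. The mean log2 value of the 18 was 7.36 and 7.29 at 6 h and 9.29 and 9.27 at 24 h in TAK1-deleted cells, against 7.45 and 7.39 at 6 h and 7.87 and 7.82 at 24 h in wild type cells. At 0 h this mean was higher than at 6 or 24 h in both genotypes, at 10.38 and 10.2 in TAK1-deleted cells and 10.29 and 10.32 in wild type cells. Of the 18, 3 or 4 lay below the median of all values (7.45) in the TAK1-deleted arrays at 24 h and 9 in the wild type arrays at 24 h, against 12 in each array at 6 h. The count was 13 without the replicate block, where 3.24% of all genes were higher, and 15 with each array left out. Hmox1, haem oxygenase 1, gave 8.71 and 8.48 at 6 h and 12.55 and 12.44 at 24 h in TAK1-deleted cells, against 8.70 and 8.61 at 6 h and 9.83 and 9.69 at 24 h in wild type cells. At 6 h the genotypes overlapped, and at 24 h both TAK1-deleted arrays were above both wild type arrays. Its late step was 3.90 in TAK1-deleted cells and 1.11 in wild type cells, a difference of 2.79 ± 0.15 (SE, adjusted p = 1.71e-09). Slc40a1, the iron exporter ferroportin, gave 6.48 and 6.74 at 6 h and 9.20 and 9.13 at 24 h in TAK1-deleted cells, against 7.12 and 6.84 at 6 h and 6.73 and 6.30 at 24 h in wild type cells. The TAK1-deleted arrays at 24 h stood above the other 6, and its difference was 3.03 ± 0.19 (SE, adjusted p = 3.14e-09). Those 6 all lay below the median of all values (7.45), so its called fall in wild type cells is a change among dim values. Adgre1, the macrophage antigen F4/80, rose in both genotypes, by 3.57 in TAK1-deleted cells and 1.36 in wild type cells, a difference of 2.21 ± 0.17 (SE, adjusted p = 2.91e-08). Cd14, the co-receptor for lipopolysaccharide, rose in TAK1-deleted cells and fell in wild type cells and differed by 2.21 ± 0.20 (SE, adjusted p = 3.57e-07). Outside the list, the lectin receptors of myeloid cells Clec4n and Clec4a1 differed by 2.73 ± 0.21 and 2.67 ± 0.22, Chil1, a chitinase-like protein, by 2.98 ± 0.17, and Treml4, a receptor of macrophages and dendritic cells, by 3.26 ± 0.23. Wfdc17, a small secreted protein, differed by 2.87 ± 0.17, and Ly6a2, a Ly6 family member whose probes were not checked against its relatives, by 2.54 ± 0.17.

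Neutrophil markers were higher at 11 of 14 tested members and lower at 0 (median 1.22). Lcn2, lipocalin 2, an iron-chelator binding protein of granules, had the largest late step difference of the genes named. It gave 11.61 and 10.76 at 6 h and 11.25 and 11.28 at 24 h in TAK1-deleted cells, against 12.00 and 11.63 at 6 h and 8.35 and 8.65 at 24 h in wild type cells. Only the 2 wild type arrays at 24 h were low. The TAK1-deleted step of 0.08 was not called, the wild type step was -3.31, and the difference was 3.39 ± 0.33 (SE, adjusted p = 7.17e-07). S100a8, a subunit of calprotectin, rose in TAK1-deleted cells and fell in wild type cells (difference 2.71 ± 0.21 (SE, adjusted p = 3.81e-08)), as did Ngp, a neutrophil granule protein (2.10 ± 0.16 (SE, adjusted p = 2.26e-08)). Mmp8, neutrophil collagenase, rose in TAK1-deleted cells alone (2.11 ± 0.17 (SE, adjusted p = 5.53e-08)). The mean of the 14 markers was 8.5 and 8.29 at 6 h and 9.04 and 9.01 at 24 h in TAK1-deleted cells, against 8.13 and 8.07 at 6 h and 7.22 and 7.28 at 24 h in wild type cells. Of the 14, 11 and 9 lay below the median of all values (7.45) in the wild type arrays at 24 h, and 6 and 5 at 6 h. In TAK1-deleted arrays 3 and 4 did at 6 h, and 1 in each at 24 h. Falls to such dim values can be understated. The share of such cells in the cultures was not measured, and its part in any gene's value was not tested.

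**Figure D2:**
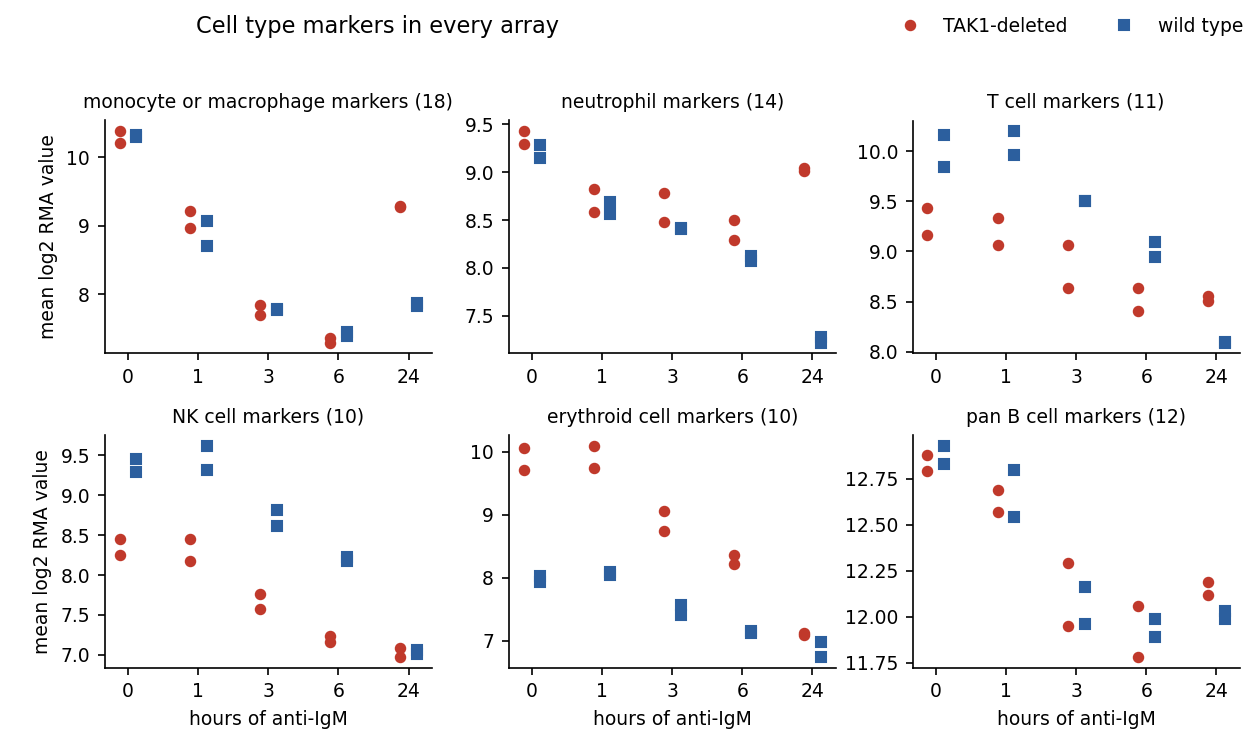
Each point is the mean log2 RMA value of a marker list in 1 array (vertical axes) at 0, 1, 3, 6 and 24 h of anti-IgM (horizontal axes), with circles for TAK1-deleted and squares for wild type cells and 2 arrays in each group. Monocyte or macrophage markers at 24 h read 9.29 and 9.27 in TAK1-deleted cells, above the 7.87 and 7.82 of wild type cells, while pan B cell markers stayed between 11.78 and 12.19 at 6 and 24 h.

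T cell and NK cell markers were higher in the late step difference with another pattern, in which most fell in wild type cells (11 of 11 and 9 of 10) and few were called in TAK1-deleted cells. There 1 T cell marker fell and 1 rose, and 3 NK cell markers fell and 1 rose. Over all genes 22.4% fell in wild type cells, and 17.9% fell and 17.7% rose in TAK1-deleted cells. All 11 tested T cell markers were called higher (median 0.88), with 0 lower. Their mean was 8.64 and 8.41 at 6 h and 8.51 and 8.56 at 24 h in TAK1-deleted cells, against 9.09 and 8.94 at 6 h and 8.09 and 8.1 at 24 h in wild type cells. Without the replicate block 3 were called, without TAK1-deleted 24 h replicate 2 there were 6, and without wild type 24 h replicate 1 there were 7. Cd3g, a chain of the T cell receptor complex, gave 8.56 and 8.97 at 6 h and 8.82 and 8.97 at 24 h in TAK1-deleted cells, against 9.58 and 9.65 at 6 h and 8.42 and 8.36 at 24 h in wild type cells, with a difference of 1.35 ± 0.18 (SE, adjusted p = 2.77e-05). The wild type arrays were the highest at 6 h and the lowest at 24 h. Of 10 tested NK cell markers 7 were higher (median 1.12). Klrb1c passed the dim filter through 1 group alone, and 7 of the other 9 were higher. Klrd1, the CD94 receptor chain, gave 7.91 and 7.45 at 6 h and 7.35 and 7.25 at 24 h in TAK1-deleted cells, against 8.55 and 8.38 at 6 h and 6.30 and 6.13 at 24 h in wild type cells, with a difference of 1.87 ± 0.18 (SE, adjusted p = 5.51e-07). Here too the wild type arrays were the highest at 6 h and the lowest at 24 h. Eomes, a transcription factor of NK cells and memory T cells, differed by 1.33 ± 0.19 (SE, adjusted p = 5.80e-05), and Nkg7, a cytotoxic granule protein, by 1.21 ± 0.18 (SE, adjusted p = 0.00011). The mean of the 10 NK cell markers at 24 h was 6.97 and 7.08 in TAK1-deleted cells and 7.01 and 7.06 in wild type cells, and 7 of the 10 lay below the median of all values (7.45) in each of these 4 arrays. At 6 h it was 7.24 and 7.16 in TAK1-deleted cells and 8.23 and 8.18 in wild type cells. At that time 10 of 10 were lower in TAK1-deleted cells, as were 7.85% of all genes. In the TAK1-deleted arrays at 6 h 5 and 6 of the 10 already lay below that median, against 1 in each wild type array. A further fall of such dim markers in TAK1-deleted cells could not be measured.

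Erythroid markers went the other way, as 5 of 10 tested were lower and 0 higher (median -0.82). Car1, carbonic anhydrase 1, gave 10.70 and 10.15 at 6 h and 6.88 and 7.02 at 24 h in TAK1-deleted cells, against 8.32 and 8.04 at 6 h and 6.47 and 6.91 at 24 h in wild type cells. Both TAK1-deleted arrays at 6 h were above all others, and at 24 h the genotypes overlapped. All Car1 values at 24 h lay below the median of all values (7.45), so the falls to them can be understated. Its difference was -1.98 ± 0.24 (SE, adjusted p = 8.90e-06). Slc4a1, the band 3 anion exchanger of red cells, differed by -1.52 ± 0.27 (SE, adjusted p = 0.000532), and Rhag, the Rh-associated glycoprotein, by -1.49 ± 0.27 (SE, adjusted p = 0.000856, and 0.0841 without the replicate block). Aqp1, a water channel, and Cldn13, a claudin of mouse red cell precursors, were also among the 12 most negative genes, at -1.37 ± 0.23 and -1.39 ± 0.30. All 8 late step arrays of Rhag and of Cldn13, and the wild type ones of Slc4a1, lay below the median of all values (7.45). A fall in wild type cells could not be measured there. Of the 10 markers 6 lay below it in each wild type array at 6 h, and 9 and 8 at 24 h. In TAK1-deleted arrays 2 did in each at 6 h, and 6 and 7 at 24 h. The mean of the 10 markers is given above beside the replication genes. Dendritic cell markers were higher at 3 of 9 (7.69% over all genes), with Flt3, the receptor for FLT3 ligand, at 0.90 ± 0.18 (SE, adjusted p = 0.00204, and 0.134 without the replicate block). That count was 1 without wild type 6 h replicate 2 and 5 without wild type 24 h replicate 2. Platelet or megakaryocyte markers were higher at 3 of 6, among them Ppbp, a platelet chemokine precursor, at 2.02 ± 0.21 (SE, adjusted p = 2.16e-06). Pf4 passed the dim filter through 1 group alone, and 2 of the other 5 were higher, against 7.69% over all genes.

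NF-κB target genes made a higher late step in TAK1-deleted cells at 22 of 39 tested members and a lower one at 0, with a list median of 0.47, against 7.69% higher over all genes. In wild type cells 22 of the 39 fell and 2 rose, against 22.4% and 15.7% of all genes. In TAK1-deleted cells 12 rose and 10 fell, against 17.7% and 17.9% of all genes. At 6 h 24 were lower in TAK1-deleted cells (7.85% of all genes were lower and 4.34% higher then), and at 24 h 16 were higher and 5 lower (14.7% of all genes higher and 14.1% lower). Il10, an anti-inflammatory cytokine, gave 6.25 and 5.93 at 6 h and 5.84 and 6.29 at 24 h in TAK1-deleted cells, against 8.35 and 8.50 at 6 h and 6.21 and 6.15 at 24 h in wild type cells. Both wild type arrays at 6 h were high and the other 6 were low, with genotypes overlapping at 24 h. Those 6 lay below the median of all values, where a fall in TAK1-deleted cells could not be measured. Its late step was -0.02 in TAK1-deleted cells and -2.24 in wild type cells, a difference of 2.22 ± 0.29 (SE, adjusted p = 2.29e-05). Cd80, a ligand of CD28 on T cells, gave 9.01 and 8.52 at 6 h and 10.36 and 10.22 at 24 h in TAK1-deleted cells, against 9.71 and 9.45 at 6 h and 9.37 and 9.10 at 24 h in wild type cells. TAK1-deleted arrays were below both wild type arrays at 6 h and above them at 24 h, and the difference was 1.86 ± 0.18 (SE, adjusted p = 6.02e-07). Ccl4, a chemokine that activated B cells release, differed by 1.32 ± 0.16 (SE, adjusted p = 7.43e-06), and Slc2a6, a lysosomal hexose transporter, by 1.23 ± 0.12 (SE, adjusted p = 7.12e-07). Both rose in TAK1-deleted cells alone. Tnfaip3, the A20 inhibitor of NF-κB signalling, differed by 0.71 ± 0.14 (SE, adjusted p = 0.00121, and 0.0978 without the replicate block) and was lower in TAK1-deleted cells at both times. Nfkbia, the inhibitor IκBα, and Rel, the c-Rel subunit, were not called, at 0.03 ± 0.11 (SE, adjusted p = 0.918) and 0.18 ± 0.08 (SE, adjusted p = 0.167). Without the replicate block 8 of the 39 were called higher. With 1 array left out at least 15 were called higher, and 1 was called lower without wild type 24 h replicate 1.

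Of 38 windows upstream of NF-κB target genes 42.1% held the NF-κB consensus, searched on both strands, against 4.64% of windows of all tested genes and 3.9% of all 32851. Among 19 windows of the called targets the share was 26.3%. The windows of Cd80 and Slc2a6 did not hold it. Among 15 tested genes of TAK1, the IκB kinases and stress kinases 1 was higher and 1 lower, against 7.69% and 2.9% over all genes. The higher one was Map3k14, the kinase NIK of the alternative NF-κB pathway, which rose in TAK1-deleted cells and fell in wild type cells (0.89 ± 0.15 (SE, adjusted p = 0.000444)). The lower one was Map2k6, an activator of p38 (-0.63 ± 0.17 (SE, adjusted p = 0.0164, and 0.366 without the replicate block)), and its call was lost when any of 4 arrays was left out. Of 17 tested B cell receptor signalling genes 1 was called, against 10.6% of all genes. It was Cr2, the complement receptor CD21. Cr2 gave 10.09 and 10.00 at 6 h and 9.27 and 9.18 at 24 h in TAK1-deleted cells, against 11.58 and 11.54 at 6 h and 9.46 and 9.07 at 24 h in wild type cells. Both genotypes fell, and wild type cells fell further from a higher level at 6 h, so that the difference was 1.48 ± 0.13 (SE, adjusted p = 3.57e-07).

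**Figure D3:**
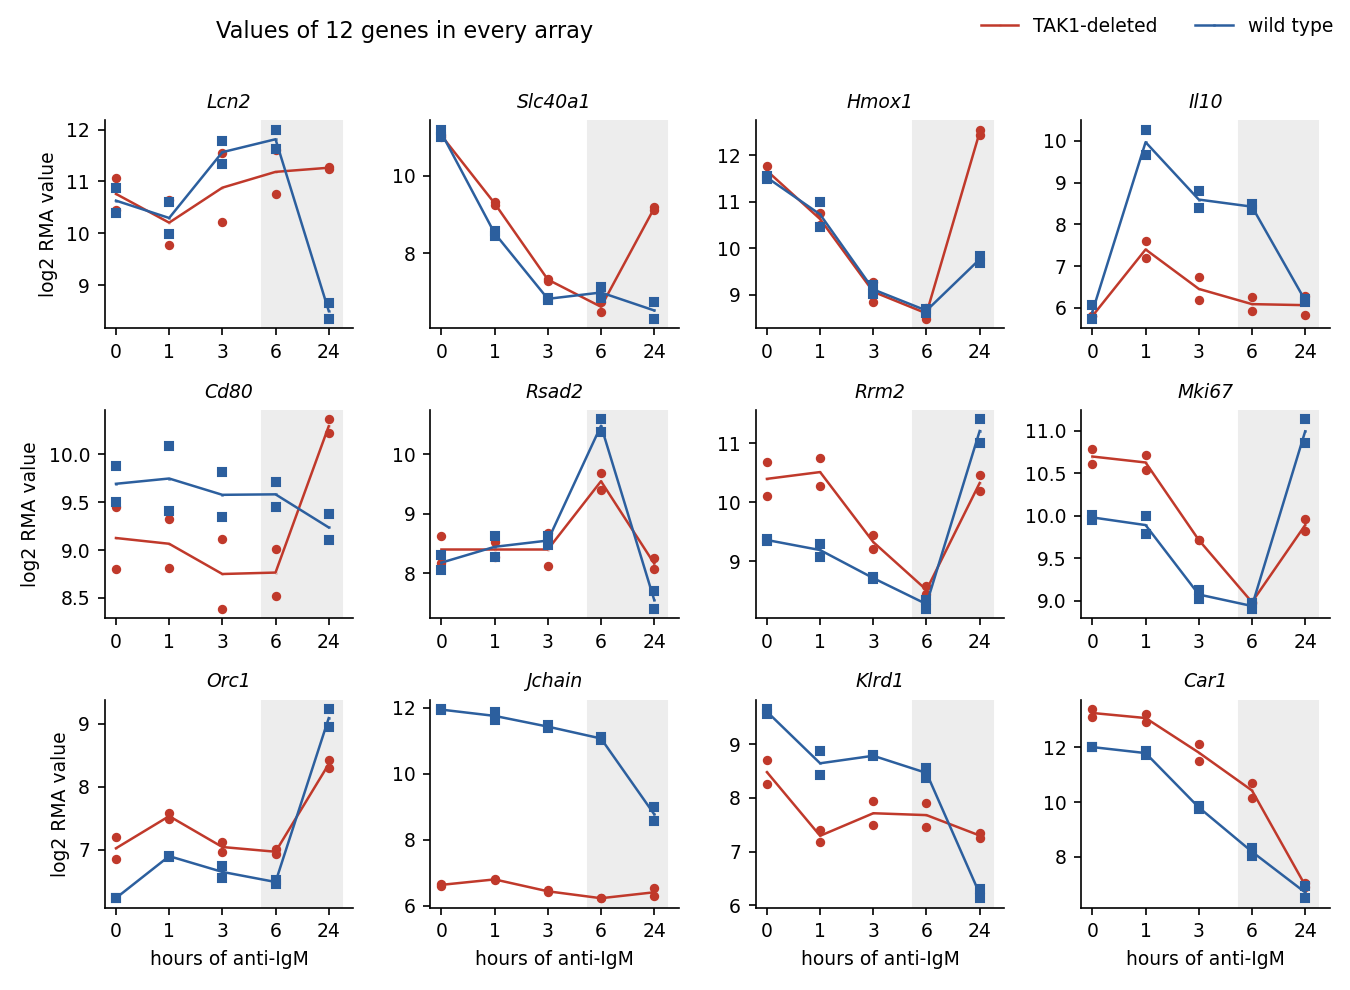
Log2 RMA values (vertical axes) of 12 genes in each of the 20 arrays at 0, 1, 3, 6 and 24 h of anti-IgM (horizontal axes), with circles for TAK1-deleted arrays, squares for wild type arrays, lines through group means and the 6 to 24 h interval shaded. Hmox1 ended above 12.4 in both TAK1-deleted arrays and below 9.9 in both wild type arrays, Il10 was above 8.3 in the 2 wild type arrays at 6 h alone among the 8 arrays of the late step, and Rrm2 rose in both genotypes.

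Among chemokines and cytokines 9 of 16 tested genes were higher and 1 lower (median 0.62), against 7.69% and 2.9% over all genes. Il1a, interleukin 1 alpha, gave 7.44 and 6.77 at 6 h and 9.17 and 8.70 at 24 h in TAK1-deleted cells, against 8.11 and 7.98 at 6 h and 6.97 and 6.75 at 24 h in wild type cells. The TAK1-deleted arrays at 24 h were above all others, and the wild type arrays at 24 h were near the lower TAK1-deleted array at 6 h. The difference was 3.02 ± 0.22 (SE, adjusted p = 1.82e-08). Il1b, interleukin 1 beta, fell in wild type cells alone, with a difference of 2.09 ± 0.15 (SE, adjusted p = 2.24e-08). Cxcl10, an interferon-induced chemokine, differed by 2.22 ± 0.49 (SE, adjusted p = 0.00432) and was not called without the replicate block (adjusted p = 0.0961). Xcl1, a chemokine that attracts cross-presenting dendritic cells, stood outside the list and went the other way. It gave 8.84 and 9.28 at 6 h and 8.37 and 8.46 at 24 h in TAK1-deleted cells, against 9.32 and 9.35 at 6 h and 10.22 and 9.94 at 24 h in wild type cells, with a difference of -1.38 ± 0.23 (SE, adjusted p = 0.000267). The TAK1-deleted arrays at 24 h were the lowest and the wild type arrays at 24 h the highest. Macrophages also express Il1a, Il1b and Cxcl10, and the monocyte or macrophage markers that moved with them are given above, but their part in these values was not tested.

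Surface markers of activation were higher at 10 of 17 tested genes and lower at 1 (median 0.47), against 7.69% and 2.9% over all genes. Cd69, an early activation antigen, gave 11.76 and 11.57 at 6 h and 10.27 and 10.02 at 24 h in TAK1-deleted cells, against 12.67 and 12.55 at 6 h and 10.18 and 9.80 at 24 h in wild type cells. Both genotypes fell from 6 h, TAK1-deleted cells by less, and at 24 h the genotypes overlapped. The difference was 1.09 ± 0.11 (SE, adjusted p = 9.45e-07). Cd86, another CD28 ligand, differed by 0.48 ± 0.14 (SE, adjusted p = 0.0334, and 0.474 without the replicate block), a call that was lost in each of the 8 fits with 1 array left out. Fas, a death receptor, differed by 0.91 ± 0.24 (SE, adjusted p = 0.0182, and 0.0785 without the replicate block) and was called in 4 of those fits. The lower gene was Tnfsf9, the ligand of 4-1BB (-0.88 ± 0.25 (SE, adjusted p = 0.0252, and 0.423 without the replicate block)), called in 4 of them. The list count depended on single arrays: 5 were higher without wild type 6 h replicate 2 and 6 without TAK1-deleted 6 h replicate 1, and 3 were higher without the replicate block. Inhibitory receptors and brakes were higher at 6 of 23 and lower at 0 (median 0.41). The count moved both up and down with single arrays left out. It was 4 without the replicate block, where 3.24% of all genes were higher. Tigit, a receptor of nectins, gave 8.26 and 8.23 at 6 h and 8.27 and 8.38 at 24 h in TAK1-deleted cells, against 9.75 and 9.75 at 6 h and 8.55 and 8.57 at 24 h in wild type cells. Only the wild type arrays at 6 h were high, and the difference was 1.27 ± 0.22 (SE, adjusted p = 0.000586). Cd274, the ligand PD-L1, differed by 1.13 ± 0.14 (SE, adjusted p = 1.04e-05), and Pirb, a receptor of class I molecules, by 1.24 ± 0.21 (SE, adjusted p = 0.000338). Pdcd1, the receptor PD-1, rose in both genotypes and its difference of 0.34 ± 0.16 (SE, adjusted p = 0.225) was not called.

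Genes of the interferon response made a smaller late fall in TAK1-deleted cells. Of 23 tested 18 were higher and 0 lower, against 7.69% higher over all genes. The list median was 0.81, with 0.70 in replicate 1 and 0.90 in replicate 2. In each genotype 22 of the 23 fell, against 17.9% of all genes in TAK1-deleted cells and 22.4% in wild type cells. At 6 h 21 were lower in TAK1-deleted cells, as were 7.85% of all genes. At 24 h 8 were higher and 1 lower, against 14.7% and 14.1% of all genes. Their mean was 10.03 and 9.81 at 6 h and 9.09 and 9.01 at 24 h in TAK1-deleted cells, against 10.6 and 10.5 at 6 h and 8.97 and 8.83 at 24 h in wild type cells. Rsad2, the antiviral enzyme viperin, gave 9.69 and 9.40 at 6 h and 8.26 and 8.07 at 24 h in TAK1-deleted cells, against 10.58 and 10.37 at 6 h and 7.70 and 7.41 at 24 h in wild type cells. TAK1-deleted arrays were lower at 6 h and higher at 24 h. Its late step was -1.38 in TAK1-deleted cells and -2.91 in wild type cells, a difference of 1.54 ± 0.15 (SE, adjusted p = 6.50e-07). Mx1, an antiviral GTPase, differed by 1.53 ± 0.15 (SE, adjusted p = 1.07e-06), Rtp4, a receptor transport protein, by 1.23 ± 0.18 (SE, adjusted p = 0.000108), and Oasl2, an oligoadenylate synthetase-like protein, by 1.17 ± 0.16 (SE, adjusted p = 4.68e-05, and 0.15 without the replicate block). Without the replicate block 9 of 23 were called, and without wild type 6 h replicate 2 there were 11. The Rsad2 window (chr12:26456548-26456587, minus strand, RefSeq, GRCm38.p6) is shown because it holds the ISRE, the element bound by interferon-activated factors, in capitals.
Rsad2: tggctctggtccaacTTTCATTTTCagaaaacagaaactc
The ISRE was searched on both strands as GAAA, any 2 bases and GAAA. It was held by 41.2% of 17 windows of the list and 38.5% of 13 windows of its called members, against 2.7% for all tested genes and 2.98% of all 32851 windows. The Oasl2 window did not hold it.

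**Figure D4:**
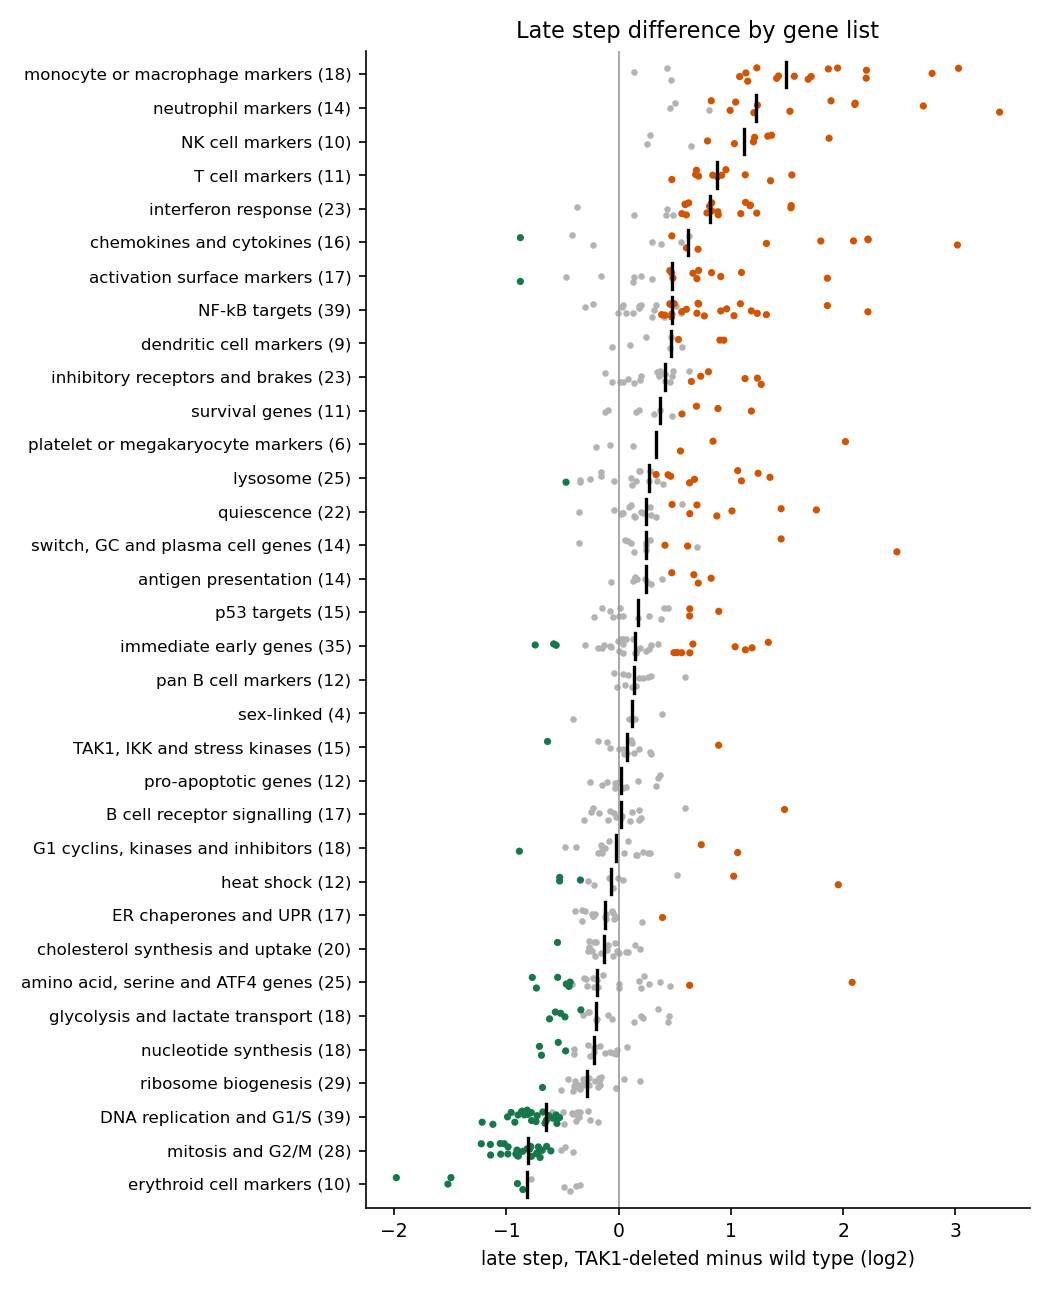
Late step difference (horizontal axis, TAK1-deleted minus wild type, log2) of every tested member of the 34 gene lists, with grey points for genes without a call, orange and green points for genes called above and below 0, and a black bar at each list's median. The number in brackets is the number of tested members. The monocyte or macrophage markers have the highest median at 1.49, and the erythroid markers and the mitosis and G2/M list the lowest at -0.82 and -0.80.

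Immediate early genes, the first to be induced by a receptor signal, differed in part, to be read against 7.69% higher and 2.9% lower over all genes. Of 35 tested 10 were higher and 3 lower (median 0.14), and 6 were higher without wild type 6 h replicate 2. The 3 lower genes, named after their values were seen, were the transcription factors Nr4a2 (-0.74 ± 0.15) and Egr3 (-0.56 ± 0.12) and Spry2, an inhibitor of ERK signalling (-0.58 ± 0.13). Jun, a subunit of AP-1, gave 9.63 and 9.37 at 6 h and 9.67 and 9.33 at 24 h in TAK1-deleted cells, against 9.74 and 9.69 at 6 h and 8.57 and 8.18 at 24 h in wild type cells. The wild type arrays at 24 h were below the other 6, and the difference was 1.33 ± 0.18 (SE, adjusted p = 2.91e-05). Dusp5, a phosphatase of ERK, differed by 1.13 ± 0.18 (SE, adjusted p = 0.000227), and Atf3, a stress-induced transcription factor, by 1.04 ± 0.17 (SE, adjusted p = 0.000225). Dusp1, a phosphatase of JNK and p38, differed by 1.19 ± 0.25 (SE, adjusted p = 0.00263) and was not called without the replicate block (adjusted p = 0.191). Dusp4, a nuclear phosphatase of MAP kinases, was not called (0.35 ± 0.16 (SE, adjusted p = 0.191)). Quiescence genes, which resting lymphocytes express, were higher at 7 of 22 and lower at 0 (median 0.25), against 7.69% higher over all genes. At 24 h 16 were higher in TAK1-deleted cells, as were 14.7% of all genes. Il7r, the interleukin 7 receptor chain, gave 10.45 and 9.98 at 6 h and 10.60 and 10.44 at 24 h in TAK1-deleted cells, against 11.17 and 10.83 at 6 h and 9.74 and 9.34 at 24 h in wild type cells. The wild type arrays were the lowest at 24 h, and the difference was 1.76 ± 0.16 (SE, adjusted p = 2.66e-07). Bcl6, a transcriptional repressor that acts in germinal centre B cells, differed by 1.45 ± 0.14 (SE, adjusted p = 6.02e-07). S1pr1, the receptor that guides exit from lymphoid tissue, differed by 1.01 ± 0.13 (SE, adjusted p = 1.91e-05), and Klf2, a factor of lymphocyte quiescence, by 0.87 ± 0.15 (SE, adjusted p = 0.000555, and 0.0609 without the replicate block). S1pr1 fell in both genotypes and was higher in TAK1-deleted cells at both times. T cells express these genes too, and T cell markers moved with Il7r: at 0 h Il7r differed between TAK1-deleted and wild type cells by -1.12 and Cd3g by -1.14, and all 11 T cell markers were higher in the late step difference. Their part in this list was not tested.

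Survival genes were higher at 4 of 11 (7.69% over all genes) and lower at 0 (median 0.37), and 1 was called without the replicate block. Cflar, which encodes c-FLIP, an inhibitor of caspase 8, gave 9.76 and 9.54 at 6 h and 9.76 and 9.59 at 24 h in TAK1-deleted cells, against 11.00 and 10.79 at 6 h and 9.96 and 9.52 at 24 h in wild type cells. The wild type arrays at 6 h were high, and at 24 h the genotypes overlapped. The difference was 1.18 ± 0.16 (SE, adjusted p = 3.64e-05), not called without the replicate block (adjusted p = 0.0929). Birc3, the ubiquitin ligase cIAP2, differed by 0.56 ± 0.12 (SE, adjusted p = 0.00244). Pim1 and Pim2, survival kinases, differed by 0.69 ± 0.15 (adjusted p = 0.0868 without the replicate block) and 0.88 ± 0.16 (adjusted p = 0.143 without the replicate block): Pim1 fell in both genotypes and Pim2 rose in both. Bcl2l1, which encodes Bcl-xL, was lower in TAK1-deleted cells at both times and its late step difference was not called (0.32 ± 0.15 (SE, adjusted p = 0.219)). Of 12 pro-apoptotic genes 0 were called in either direction. Targets of p53 were higher at 3 of 15 (7.69% over all genes) and lower at 0, among them Trp53inp1, a stress-induced nuclear protein (0.89 ± 0.12 (SE, adjusted p = 2.70e-05)), and Btg2, an antiproliferative protein (0.63 ± 0.09 (SE, adjusted p = 8.16e-05)). Class switch, germinal centre and plasma cell genes were higher at 4 of 14 (7.69% over all genes). Jchain, the joining chain of polymeric immunoglobulin, gave 6.23 and 6.22 at 6 h and 6.53 and 6.28 at 24 h in TAK1-deleted cells, against 11.03 and 11.10 at 6 h and 8.98 and 8.56 at 24 h in wild type cells. All 4 TAK1-deleted arrays lay below the median of all values, where a fall could not be measured, and the called wild type step was -2.29. The difference of 2.48 ± 0.17 therefore describes the fall in wild type cells alone. Irf4, a factor of plasma cell differentiation, differed by 0.41 ± 0.10 (SE, adjusted p = 0.00926, and 0.431 without the replicate block). Ighm, the immunoglobulin mu chain, was not called (0.59 ± 0.21 (SE, adjusted p = 0.0774)).

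Calls in the biosynthesis lists depended on single arrays and are to be read against 2.9% lower and 7.69% higher over all genes. Ribosome biogenesis had 1 lower member of 29 and 0 higher, Utp20, a component of the small subunit processome (-0.68 ± 0.17 (SE, adjusted p = 0.00953)), which is near the share over all genes, and the list median was -0.28. At 24 h 27 of the 29 were lower in TAK1-deleted cells, against 14.1% of all genes. Its count was 5 without TAK1-deleted 6 h replicate 1, 4 without wild type 24 h replicate 2, 2 without TAK1-deleted 24 h replicate 1, and 0 without wild type 24 h replicate 1, TAK1-deleted 6 h replicate 2 or TAK1-deleted 24 h replicate 2. Nucleotide synthesis had 4 lower of 18, Cad, the multifunctional enzyme that starts pyrimidine synthesis (-0.69 ± 0.16 (SE, adjusted p = 0.00689)), Nme1, a nucleoside diphosphate kinase (-0.71 ± 0.16 (SE, adjusted p = 0.00677)), Pfas, an enzyme of purine synthesis, and Umps, the last enzyme of UMP synthesis. Without wild type 24 h replicate 1 it had 0, without TAK1-deleted 24 h replicate 2 it had 1, and without wild type 6 h replicate 1 or TAK1-deleted 6 h replicate 2 it had 2. Glycolysis and lactate transport had 5 lower of 18, among them Pfkp, the platelet-type phosphofructokinase (-0.62 ± 0.16 (SE, adjusted p = 0.0131)), and Slc2a1, the glucose transporter GLUT1 (-0.48 ± 0.12 (SE, adjusted p = 0.0132)). That count was 1 without TAK1-deleted 6 h replicate 2, 2 without wild type 6 h replicate 1, wild type 24 h replicate 1 or TAK1-deleted 24 h replicate 1, and 3 without wild type 6 h replicate 2 or TAK1-deleted 24 h replicate 2. In the list of amino acid transport, serine synthesis and ATF4 genes 2 of 25 were higher and 6 lower. Slc7a11, the cystine transporter chain xCT, gave 9.23 and 8.99 at 6 h and 10.29 and 10.12 at 24 h in TAK1-deleted cells, against 9.67 and 9.51 at 6 h and 8.87 and 8.33 at 24 h in wild type cells. TAK1-deleted arrays were below both wild type arrays at 6 h and above them at 24 h, and the difference was 2.08 ± 0.21 (SE, adjusted p = 1.12e-06). Asns, asparagine synthetase, fell in both genotypes, further in TAK1-deleted cells (-0.77 ± 0.21 (SE, adjusted p = 0.0232)), and Shmt1, the cytosolic serine hydroxymethyltransferase, differed by -0.73 ± 0.17 (SE, adjusted p = 0.00646). The 6 lower genes of this list were 1 or 2 without wild type 6 h replicate 1, wild type 24 h replicate 1, TAK1-deleted 6 h replicate 2 or TAK1-deleted 24 h replicate 2, and the 2 higher genes were 1 without TAK1-deleted 6 h replicate 1 or wild type 24 h replicate 2. Without the replicate block none of these 4 lists had a lower gene called. Cholesterol synthesis and uptake had 1 lower of 20, also near the share over all genes, Pmvk, phosphomevalonate kinase (-0.55 ± 0.17 (SE, adjusted p = 0.0413, and 0.136 without the replicate block)), lost without any of 6 arrays.

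Lysosomal genes were higher at 9 of 25 and lower at 1 (median 0.27), against 7.69% and 2.9% over all genes, with 5 higher without the replicate block. The lower one was Gusb, beta-glucuronidase, at -0.47 ± 0.12, named after its value was seen, and lost without wild type 6 h replicate 1, wild type 24 h replicate 1 or TAK1-deleted 24 h replicate 1. Gpnmb, a glycoprotein of lysosomes and melanosomes, gave 6.49 and 6.32 at 6 h and 10.10 and 10.50 at 24 h in TAK1-deleted cells, against 6.37 and 6.47 at 6 h and 9.09 and 8.85 at 24 h in wild type cells. It rose in both genotypes from like levels at 6 h, and at 24 h both TAK1-deleted arrays were above both wild type arrays. The difference was 1.35 ± 0.19 (SE, adjusted p = 6.52e-05). The proteases Ctsl and Ctsd, cathepsins L and D, differed by 1.24 ± 0.16 and 1.09 ± 0.14, and Lipa, lysosomal acid lipase, by 1.06 ± 0.17. Macrophages are rich in these transcripts, and the part of the macrophage markers given above was not tested. Antigen presentation genes were higher at 4 of 14 (7.69% over all genes) and lower at 0, among them H2-Ob, a chain of the inhibitor of peptide loading H2-O (0.67 ± 0.09 (SE, adjusted p = 5.07e-05)). That count was 1 without wild type 24 h replicate 1 or TAK1-deleted 24 h replicate 2 and 2 without wild type 6 h replicate 2 or TAK1-deleted 6 h replicate 2. Of 17 genes of endoplasmic reticulum chaperones and the unfolded protein response 1 was higher, near the share of 7.69% over all genes. The gene was Edem1, which directs misfolded glycoproteins to degradation (0.39 ± 0.11 (SE, adjusted p = 0.0332, and 0.568 without the replicate block)). It was called in 1 of the 8 fits with 1 array left out, and without TAK1-deleted 6 h replicate 1 the list had 3 lower genes. Heat shock genes were higher at 2 of 12 and lower at 3, against 7.69% and 2.9% over all genes, and of the lower ones 1 was called without wild type 6 h replicate 1 or TAK1-deleted 24 h replicate 2 and 0 without wild type 24 h replicate 1 or TAK1-deleted 6 h replicate 2. Hspb1, a small heat shock protein, gave 8.42 and 7.91 at 6 h and 7.57 and 7.48 at 24 h in TAK1-deleted cells, against 10.40 and 10.02 at 6 h and 7.64 and 7.59 at 24 h in wild type cells. Only the wild type arrays at 6 h were high, and the difference was 1.96 ± 0.32 (SE, adjusted p = 0.000293). Hspa1a, the inducible HSP70, differed by 1.02 ± 0.14 (SE, adjusted p = 4.03e-05), and was not called without the replicate block (adjusted p = 0.0826). Hsph1 and Hspd1, chaperones of the HSP110 and HSP60 families, rose in wild type cells alone and differed by -0.53 ± 0.13 (adjusted p = 0.125 without the replicate block) and -0.53 ± 0.14 (adjusted p = 0.164 without the replicate block).

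The late step difference equals the genotype difference at 24 h minus that at 6 h, and the same 8 arrays give all of them, so the 3 are not independent. TAK1-deleted and wild type cells differed at 3442 genes at 24 h (28.8%, 1760 higher and 1682 lower) and at 1458 genes at 6 h (12.2%, 519 higher and 939 lower). The split at 6 h depended on the scaling, with 707 higher and 745 lower after quantile normalization and 363 higher and 1118 lower with arrays centred on their medians. Of the 920 genes with a higher late step 524 (57%) were higher in TAK1-deleted cells at 24 h and had no call at 6 h. Another 181 (19.7%) had no call at 24 h and were lower at 6 h, and 146 (15.9%) were lower at 6 h and higher at 24 h. Of the 347 with a lower late step 261 (75.2%) were lower at 24 h with no call at 6 h, and 54 (15.6%) had no call at 24 h and were higher at 6 h. Il10, Tigit and Hspb1 belong to the genes whose genotype difference was called at 6 h alone, Hmox1, Lcn2 and Mki67 to those called at 24 h alone, and Rsad2, Cd80 and Slc7a11 to those called at both times in opposite directions.

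**Figure D5:**
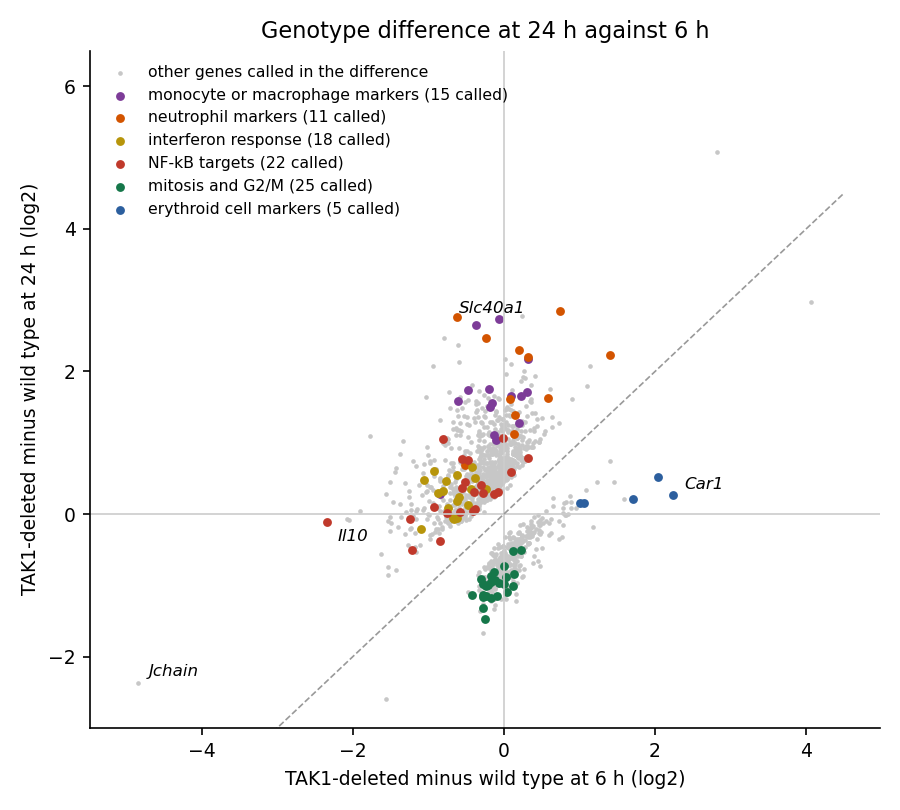
Genotype difference at 24 h (vertical axis) against that at 6 h (horizontal axis), both TAK1-deleted minus wild type in log2, for the 1267 genes called in the late step difference, with 6 lists coloured and the dashed line marking equal differences at both times. Mitosis and G2/M genes lie below 0 at 24 h and near 0 at 6 h, erythroid markers lie to the right, and Jchain lies far to the lower left with -4.84 at 6 h and -2.36 at 24 h.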

How the data were processed

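RNA of 20 samples was measured on Affymetrix arrays in 10 groups of 2, which the labels set by genotype, time and replicate number. Per the submitters' processing notes the authors used RMA and Affymetrix Expression Console 1.0 to make the deposited log2 values. A genome build or annotation for the probe sets is not given in the sources used here. The number of arrays limits the precision. RMA values have a floor and detection p-values were not used, so folds against dim groups can be understated.

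Values of 35556 probe sets lay between 3.64 and 14.68 and were not normalized again. The platform annotation lists 23410 of them, 21789 with 1 gene symbol and 1621 with several, and 12146 are unlisted. Symbols were matched by gene ID for 21698 probe sets, which changed 0. A probe set was kept if 2 or more arrays reached 7.45, the median over the whole table (20326), of which 7191 without a single symbol were left out. The brightest probe set stood for each of 678 genes with several, which left 11968 genes.

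A linear model over all 20 arrays was fitted with R 4.3.3 and limma 3.58.1, using lmFit, contrasts.fit and eBayes with its intensity trend, with replicate number as a block (9 residual and 10.1 prior degrees of freedom). Tests were two-sided, with Benjamini-Hochberg adjustment within each of 5 comparisons. The block is part of the definition of the comparison. Same-numbered arrays deviated together from their group means in all 45 pairs of groups (r of 0.191 to 0.769, and 0.202 to 0.609 among the 4 groups at 6 and 24 h), so the numbers from the labels were treated as pairs. The fit was tested on simulated data with known changes.

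The text names the 12 called genes with the largest positive and the 12 with the largest negative difference whose steps do not overlap, up to 4 called members of each list with the largest difference, and 18 fixed genes. Of these it gives mainly those called with each array left out, chosen with their values known, and a call described without further remark held in all 8 such fits, except for genes of the biosynthesis lists (Slc7a11 held), Hsph1 and Hspd1. The comparison, its members and the 34 gene lists (635 symbols, 578 tested) were chosen with earlier results of these data known. A gene can stand in several lists. Promoter windows are RefSeq's, on GRCm38.p6. Alternatives changed the block, the arrays fitted, the filter, the scaling, the choice of probe set and the variance model.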

Additional observations from a re-analysis of the deposited data

Results flagged for a closer look

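The late step differed between genotypes, by the test of the difference itself, at 1267 genes. At 135 of them the steps of the genotypes were also called in opposite directions. Among the genes named, these were so called in opposite directions, rising in TAK1-deleted cells and falling in wild type cells: Treml4 (late step difference 3.26), Slc40a1 (3.03), Il1a (3.02), Chil1 (2.98), Wfdc17 (2.87), S100a8 (2.71), Ly6a2 (2.54), Cd14 (2.21), Ngp (2.10), Slc7a11 (2.08), Ppbp (2.02), Cd80 (1.86), Il7r (1.76), Ctsl (1.24), Nkg7 (1.21) and Map3k14 (0.89). Xcl1 fell in TAK1-deleted cells and rose in wild type cells (-1.38).

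Data outside the report's comparisons also carried a signal. Of 7191 probe sets without a single gene name 174 were called in the late step difference (2.42%), 117 higher and 57 lower. In cells taken at 0 h, which the late step does not use, several of the genes named already differed by at least 2 log2 units between TAK1-deleted and wild type cells. Jchain differed by -5.31, and the red cell genes Rhag, Cldn13, Slc4a1, Aqp1 and Ermap by 3.21, 3.09, 2.89, 2.39 and 2.02. Groups of 2 arrays are too small for a check of single outlying arrays.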

How the results depend on the processing

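No called gene that the text names changed direction. Values near 0 did: the median of the G1 cyclin list (-0.02) was 0.03 with centred arrays and 0.11 without wild type 6 h replicate 1, and those of the B cell receptor, heat shock and sex-linked lists and the uncalled differences of Map3k7, Nfkbia and Cd79a also changed sign under at least 1 setting. The excess of lower calls in the TAK1-deleted step (2122 higher, 2145 lower) turned with centred arrays (2369 and 1624), quantile normalization (2443 and 2060) and no block (1294 and 964). At 6 h quantile normalization gave 707 higher and 745 lower. The replicate block moved the counts most. Without it 463 genes were called in the late step difference against 1267 with it, with 83.8% of the calls higher against 72.6%. The TAK1-deleted step then had 2258 calls against 4267, the wild type step 2321 against 4550, the genotype difference at 24 h 1462 against 3442, and that at 6 h 303 against 1458. With 1 array left out, which leaves a group of 1 array that is assumed to vary like the others, the late step difference had 889 to 1180 calls, the TAK1-deleted step 3022 to 3576, the wild type step 3149 to 3832, the 24 h difference 2023 to 3149 and the 6 h difference 551 to 1237. The 24 h difference had 2023 without wild type 24 h replicate 1. The 6 h difference had 551 without wild type 6 h replicate 2, 560 without TAK1-deleted 6 h replicate 1 and 879 without wild type 6 h replicate 1. The cause was not tested. Under the other alternatives the late step difference had 1058 to 1406 calls. Of the 118 named genes called, 71 were called without the block, 98 to 113 with 1 array left out and 114 to 118 under the others, except that the stricter filter kept 97 of them, 95 called. Raw scans were not used here, so what signal over background limits was not measured beyond the dim filter.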
